A study of Mus musculus with 15 samples.

Results

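Sensory neurons that supply mouse muscle were compared after injection of complete Freund's adjuvant (CFA) or of saline into the muscle. It took 6 of the study's 15 arrays, 3 labelled CFA muscle and 3 labelled saline muscle by their titles, and covered all 19938 genes measured with 1 gene symbol. CFA is an oil emulsion of killed mycobacteria that causes a lasting local inflammation, and saline was the control injection.

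All mice were C57BL/6 and carried a green fluorescent protein (GFP) insertion driven by the promoter of CGRP. CGRP, calcitonin gene-related peptide, is a vasodilating peptide released by many pain-sensing neurons. The cells of both groups were neurons of a diameter over 26.9 µm that lacked GFP. They came from the dorsal root ganglia of lumbar levels 2 to 5 on the side of the injection. They had taken up a fluorescent lectin, Wheat Germ Agglutinin-AF647, which had been injected 5 days before death and marks neurons by transport from the periphery. The 5 groups of the study have 3 biological replicates each, and the others are acid muscle, CFA paw and saline paw. The labels do not give the dose of CFA, the time from its injection, sex, age or whether animals were pooled. They do not give the mice's zygosity for the reporter either.

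Large neurons of the dorsal root ganglion are mostly myelinated. Those of muscle include the proprioceptors, which report stretch and tension, as well as afferents that respond to pressure. Inflamed tissue releases protons, ATP, prostaglandins, cytokines and growth factors, which act on channels and receptors of the nerve endings. Signals carried back along the axon can change transcription in the cell body, and the study's title concerns mechanically gated proteins after inflammation. Levels are given as log2 expression, so that a difference of 1 is a 2-fold change. Each probe set has its own efficiency, so levels were compared between arrays and not between genes. A level under 2.44 is called dim, since 95% of 1194 olfactory and vomeronasal receptor genes had a mean under it.

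The sorted cells held RNA of sensory neurons on all 6 arrays. Of 14 general sensory neuron genes named, 12 were measured, and none of them was dim. Nefh, the heavy neurofilament of large neurons, lay between 8.83 and 9.76, and Pvalb, a calcium-binding protein of proprioceptors, lay between 3.93 and 5.41. Ntrk3, the neurotrophin-3 receptor of proprioceptors, lay between 4.38 and 5.59. Genes usually ascribed to small unmyelinated neurons were well above the dim level too. Mrgprd, a receptor of non-peptidergic nociceptors, lay between 6.75 and 7.54, and Scn10a, a nociceptor sodium channel, lay between 7.27 and 8.16. The gene for alpha-CGRP was not analysed here, and Calcb, which encodes beta-CGRP, lay between 5.71 and 6.25. Glial RNA was present on every array, with Fabp7, a lipid-binding protein of satellite glia, between 8.62 and 9.58. In such bulk samples, fewer cells of a type and less RNA per cell cannot be told apart.

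The arrays were alike in level, with medians between 3.09 and 3.16. Correlations across genes ran from 0.969 to 0.983 within CFA muscle, from 0.962 to 0.980 within saline muscle and from 0.963 to 0.982 between the groups. CFA muscle replicate 1 and saline muscle replicate 3 had the narrowest spread over genes, with SDs of 1.37 and 1.34, against 1.45 to 1.51 on the other 4 arrays. Neuronal genes followed this spread. The mean of the 12 general sensory neuron genes was 6.60, 7.10 and 7.09 in CFA muscle replicates 1, 2 and 3, and 7.36, 7.11 and 6.71 in saline muscle. It was lowest on the same 2 arrays that had the narrowest spread. With the SD of the array as a covariate, limma still called 0 genes at an adjusted p under 0.05. The median difference of these 12 genes was −0.12 with and without the covariate. Each group held 1 of the 2 narrow arrays, so the covariate could hardly move a difference of group means.

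CFA muscle replicates 2 and 3 stood apart from the other 13 arrays of the study by a set of genes that were found after the values had been seen. Xist, the noncoding RNA that silences an X chromosome in female cells, was at 1.40, 3.29 and 3.35 in CFA muscle replicates 1, 2 and 3. The other 12 arrays lay between 1.43 and 1.93. Replicates 2 and 3 were thus the only arrays on which Xist was not dim. Igf2, a growth factor of fetal tissue, was at 2.75, 5.70 and 6.27 in CFA muscle and at 3.00, 3.18 and 3.47 in saline muscle. Cym, the milk-clotting protease chymosin, was at 3.21, 6.50 and 7.11 in CFA muscle and at 2.91, 3.26 and 4.07 in saline muscle. For both, replicate 1 lay within or under the saline range, and the next highest array of the study was acid muscle replicate 2, at 4.15 for Igf2 and 4.53 for Cym.

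The count of shared high genes was made for this pair of arrays only. In all, 11 of the 19938 genes were higher on these 2 arrays than on any other by more than 0.5. Beside Xist, Igf2 and Cym they were Hbb-y, an embryonic beta-globin (1.80, 3.45 and 3.10), and Cldn6, a tight-junction protein of early epithelia (2.78, 4.42 and 4.35). The others were Sinhcaf, Abi3bp, Igfbp5 and the small nucleolar RNA genes Snord33, Snord49b and Snord15b. Foxa1, a transcription factor of endodermal epithelia, was at 3.00, 4.04 and 4.34 in CFA muscle and at most 3.56 elsewhere, with a gap of 0.49. Of 47 measured cell cycle genes, a list chosen after the values were seen, 38 had a positive difference, with a median of 0.12 that was 0.01 with only replicate 1 kept. Top2a, the DNA topoisomerase of dividing cells, was at 2.02, 2.73 and 2.91 in CFA muscle and between 2.01 and 2.29 in saline muscle. The fibroblast receptor gene Pdgfra was at 2.49, 3.38 and 3.60, against 2.42 to 2.59 in saline muscle. All 3 measured Y-linked genes overlapped between the groups, with a median of −0.07. Eif2s3y was at 2.39, 3.11 and 3.20 in CFA muscle and at 2.86, 2.62 and 2.22 in saline muscle (0.34). Kdm5d was at 2.15, 1.96 and 2.21 against 2.47, 2.21 and 1.85 (−0.07), and Uty at 2.62, 2.39 and 2.90 against 3.02, 3.50 and 2.67 (−0.42).

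**Figure D1:**
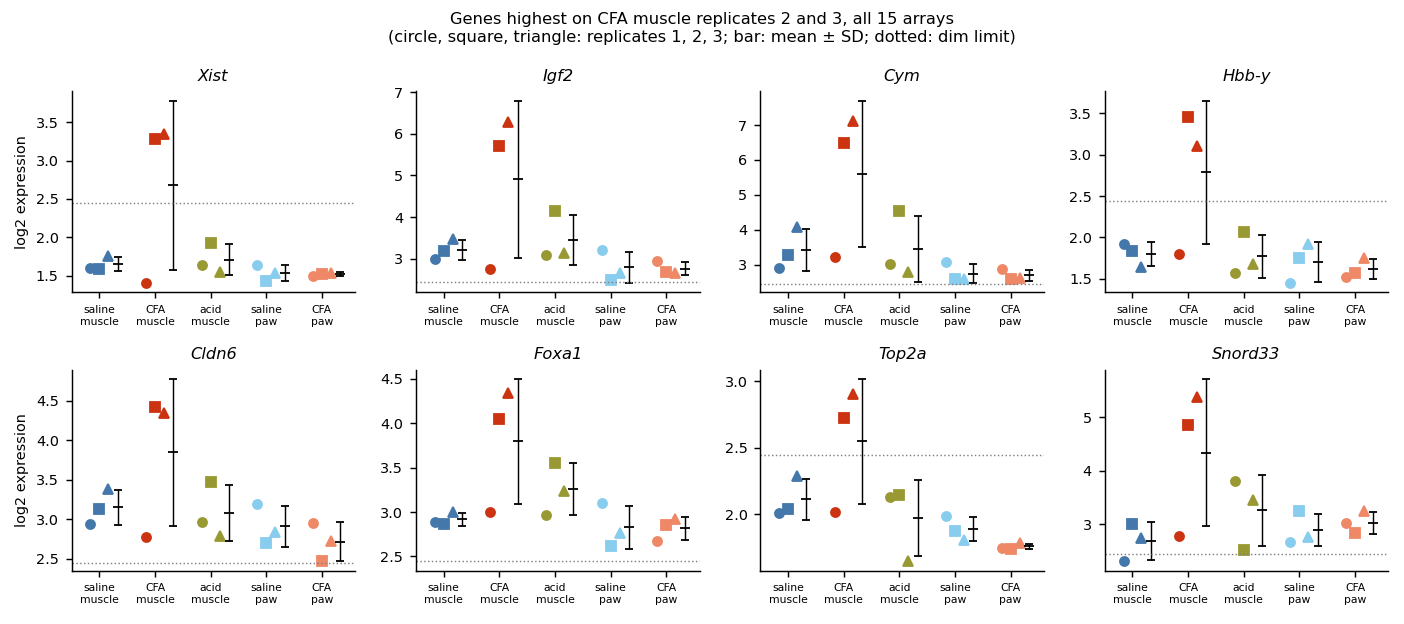
Log2 expression (vertical axes) of 8 genes on all 15 arrays, by group (horizontal axes); circles, squares and triangles are replicates 1, 2 and 3, bars are the mean ± SD, and the dotted line is the dim level of 2.44. For Xist, CFA muscle replicates 2 and 3 lie at 3.29 and 3.35 while the other 13 arrays lie between 1.40 and 1.93, and each gene shown has its highest values on the same 2 arrays.

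No gene passed between CFA muscle and saline muscle. With limma and Benjamini-Hochberg adjustment over 19938 genes, 0 were called at an adjusted p under 0.05, and the smallest adjusted p was 1. At an unadjusted p under 0.05 there were 518 genes (2.6%), 278 higher (1.39%) and 240 lower (1.2%) in CFA muscle, fewer than the 997 expected if nothing differed. The fit also called 0 genes in each of the normalizations and models tried on all 6 arrays, with up to 583 higher and 586 lower genes at an unadjusted p under 0.05. Without CFA muscle replicate 1, 8 genes passed (0.0401%), namely Abi3bp, Cym, Foxa1, Hbb-y, Igf2, Sinhcaf, Snord33 and Xist, all of them described above as high on replicates 2 and 3. With that array left out, the limma difference (with its Benjamini-Hochberg adjusted p) was 2.77 for Igf2 (SE 0.31, adjusted p = 0.0059), 3.39 for Cym (SE 0.44, adjusted p = 0.0126) and 1.67 for Xist (SE 0.14, adjusted p = 0.00048). With only replicate 1 kept, these differences were −0.47, −0.21 and −0.25. The genes were picked from the values of these same arrays, so the adjusted p-values give no separate support for the pattern.

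The differences were small for most genes. The median SE of a difference was 0.19, and 90% of genes differed by less than 0.30 and 99% by less than 0.54. Only 10 genes differed by more than 1, all of them higher in CFA muscle: Cym, Snord82, Igf2, Snord33, Gas5, Rny3, Igfbp5, Xist, Snord57 and Yipf5. For 723 genes (3.63%) all CFA muscle values lay above all saline muscle values, and for 818 (4.1%) all lay below. With 3 arrays against 3, an exact two-sided permutation test of a single gene cannot give a p under 0.1.

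**Figure D2:**
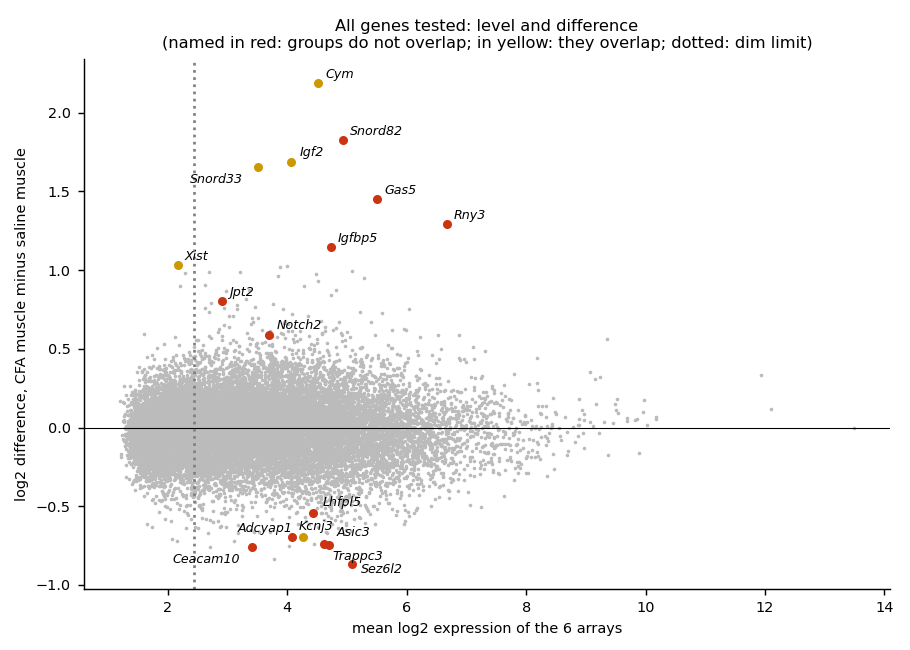
Each grey point is 1 of the 19938 genes, with the mean log2 expression of the 6 arrays on the horizontal axis and the log2 difference, CFA muscle minus saline muscle, on the vertical axis. Named genes are red where the groups do not overlap and yellow where they do; 10 genes lie above 1 and 0 lie below −1.

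Igfbp5, which encodes a secreted protein that binds insulin-like growth factors (IGFs), had the smallest p among the higher genes. It was at 4.84, 5.48 and 5.57 in CFA muscle and at 4.43, 3.64 and 4.40 in saline muscle. Every CFA muscle array lay above every saline muscle array, and replicate 1 was the lowest of the 3. The means were 5.30 ± 0.40 and 4.15 ± 0.45 (SD, n = 3 each), a 2.21-fold difference (log2 1.15, SE 0.23, 95% confidence interval 0.65 to 1.64). Limma's unadjusted p was 0.00019, and the Benjamini-Hochberg adjusted p was 1. With only CFA muscle replicate 1 kept the difference was 0.69.

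The IGF system had no common direction as a list. Of its 21 measured members, 11 had a positive difference, and the median was 0.03 against −0.01 over all genes. Igfbp5 alone had groups without overlap. Igf1r, the receptor that carries most IGF signalling, was at 4.31, 5.09 and 5.28 in CFA muscle and at 4.90, 5.19 and 4.66 in saline muscle, a difference of −0.02 (SE 0.25). Its groups overlapped, with both the highest and the lowest value in CFA muscle. Igf1 itself differed by 0.07 (SE 0.14), Igfbp3 by −0.04 (SE 0.21) and Igfbp4, another binding protein, by 0.04 (SE 0.28). Among the proteases that cut IGF binding proteins, Pappa differed by 0.17 (SE 0.27) and Pappa2 by −0.32 (SE 0.20).

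Notch2, a receptor of cell-to-cell signalling, was at 3.90, 4.16 and 3.91 in CFA muscle and at 3.38, 3.38 and 3.44 in saline muscle. The groups were apart, and the saline muscle arrays lay close together. The difference was 0.59 (SE 0.13) and was 0.50 with only CFA muscle replicate 1 kept, at an unadjusted limma p of 0.00045. The related receptors Notch1 and Notch3 each differed by 0.02 (SE 0.18 and 0.19), and the ligand Jag1 differed by −0.26 (SE 0.18). The target genes Hes1 and Hey1 differed by −0.04 (SE 0.24) and −0.20 (SE 0.29). None of these 5 genes had groups without overlap.

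Jpt2, which encodes a protein that binds a calcium-mobilizing messenger, was at 2.92, 3.25 and 3.75 in CFA muscle and at 2.71, 2.68 and 2.12 in saline muscle. It differed by 0.80 (SE 0.20), with CFA muscle replicate 1 close to the saline muscle values. Kcna3, a voltage-gated potassium channel, was at 3.83, 3.81 and 3.68 in CFA muscle and at 3.37, 3.19 and 3.37 in saline muscle. It differed by 0.46 (SE 0.13), and here replicate 1 was the highest array. The axonal channels Kcna1 and Kcna2, of the same family, differed by −0.12 (SE 0.30) and −0.21 (SE 0.23). Magel2, an imprinted gene whose product regulates protein recycling in neurons, was at 3.30, 3.31 and 3.20 in CFA muscle and at 2.87, 2.87 and 2.83 in saline muscle. It differed by 0.41 (SE 0.12), and the arrays of each group lay close together. Mcm6, a subunit of the replicative helicase, was at 3.75, 3.08 and 3.29 in CFA muscle and at 2.71, 2.46 and 2.82 in saline muscle, a difference of 0.71 (SE 0.19). The helicase subunits Mcm2 and Mcm5 differed by −0.02 (SE 0.20) and 0.14 (SE 0.19) and overlapped.

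The other genes with the smallest p among those higher were Sinhcaf, Ykt6, Syncrip, Capn6, Cstf2, Foxa1, R3hdm4, H1f1 and Creld2, with differences from 0.46 (R3hdm4) to 0.88 (Foxa1). Ykt6 encodes a SNARE of vesicle fusion, and Cstf2 a factor that cleaves pre-mRNA at its polyadenylation site. The largest differences without overlap included those of Gas5, a noncoding RNA that hosts small nucleolar RNAs (1.45, SE 0.71), and Taf1a, a subunit of an RNA polymerase I factor (0.96, SE 0.37). Mrps10 of the mitochondrial ribosome differed by 0.93 (SE 0.31) and the translation factor gene Eif3m by 0.87 (SE 0.33). The probe set used for Gas5 was higher, but the 3 others for this gene had the opposite sign. Krt19, a keratin of simple epithelia, differed by 0.82 (SE 0.27) and was at 3.10, 3.67 and 4.37 in CFA muscle. It thus shared the order of replicates seen for Igf2, with only 0.20 left when replicate 1 alone was kept.

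**Figure D3:**
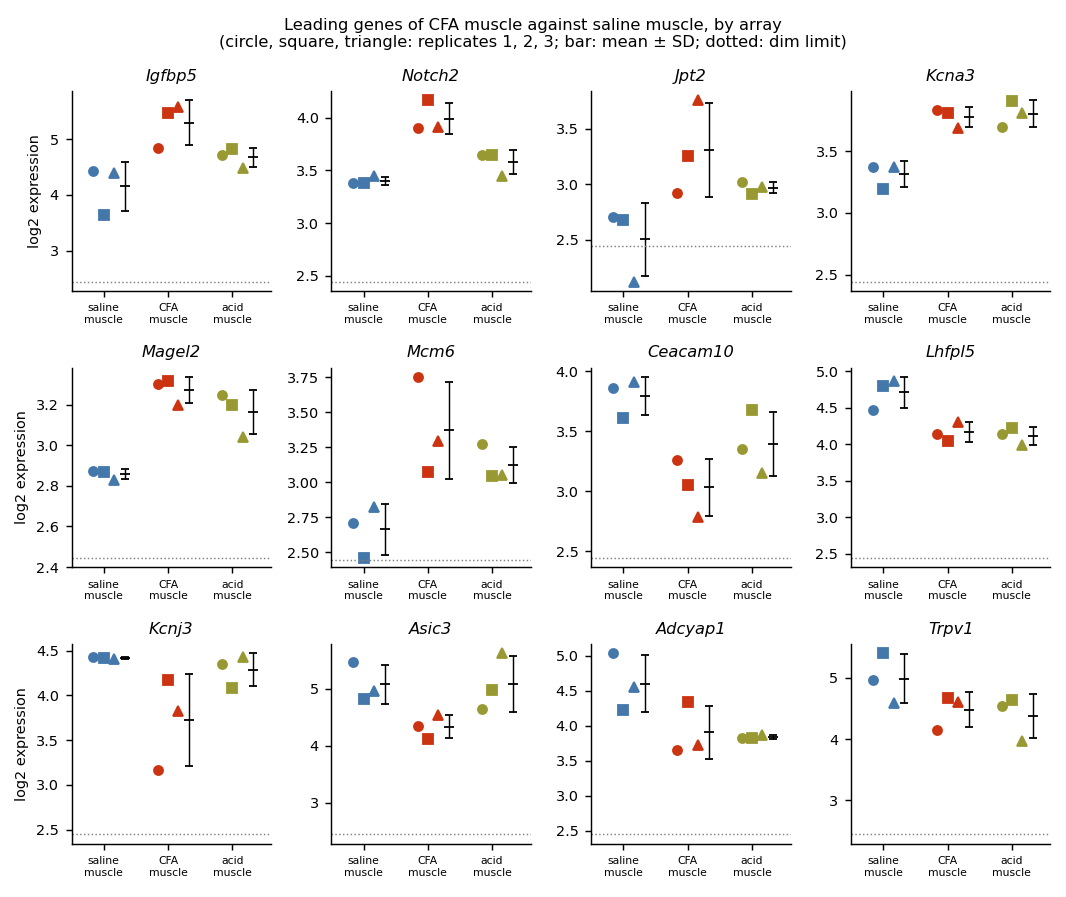
Log2 expression (vertical axes) of 12 genes in the 3 muscle groups (horizontal axes); circles, squares and triangles are replicates 1, 2 and 3, bars are the mean ± SD, and the dotted line is the dim level. Igfbp5, Notch2, Jpt2, Kcna3, Magel2 and Mcm6 have every CFA muscle array above every saline muscle array, and Ceacam10, Lhfpl5, Kcnj3 and Asic3 every one below, while Adcyap1 and Trpv1 overlap.

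Among the lower genes, Ceacam10, a member of the carcinoembryonic antigen family of cell adhesion proteins, had the smallest p. It was at 3.26, 3.05 and 2.79 in CFA muscle and at 3.86, 3.61 and 3.91 in saline muscle. All CFA muscle arrays lay lower, by 0.76 in the mean (SE 0.19, 1.69-fold, unadjusted limma p 0.0012). Trappc3, a subunit of a complex that tethers transport vesicles, was at 4.29, 4.34 and 4.10 in CFA muscle and at 4.80, 5.32 and 4.81 in saline muscle. It differed by −0.74 (SE 0.22), with no overlap. Sez6l2, a membrane protein of neurons, had the largest lower difference among genes without overlap, at −0.87 (SE 0.39). It was at 3.96, 4.91 and 5.07 in CFA muscle, so replicate 1 was the lowest, and with it left out the difference was −0.53. Gpx3, a secreted glutathione peroxidase, differed by −0.69 (SE 0.31), and Dnajb9, a chaperone of the endoplasmic reticulum, by −0.67 (SE 0.48).

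The other genes with the smallest p among those lower were Pramel12, Uggt2, Kcnj1, Eras, Adhfe1, Pex2, Zfp874b, Gtpbp10, Chst1, Toe1, Svs3a, Zbtb4 and Lhfpl5. Their differences ran from −0.38 (Gtpbp10) to −0.64 (Kcnj1), and most had low levels. Uggt2, a folding sensor of glycoproteins, was at 2.30, 2.30 and 2.27 in CFA muscle and at 3.06, 2.74 and 2.61 in saline muscle, so its CFA muscle values were dim. Zbtb4, a repressor that binds methylated DNA, was measured at 4.27, 4.47 and 4.20 against 4.82, 4.74 and 5.14, with no overlap.

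Mechanically gated channels and their partners, which the study's title puts in front, had no common direction. Of 39 named, 36 were measured, 17 of them with a positive difference, and the median was −0.03. The groups did not overlap for 2 higher members (5.56%, against 3.63% of all genes) and for 4 lower members (11.1%, against 4.1%). After quantile normalization the counts were 0 higher and 4 lower. Piezo2, the main channel of touch and proprioception, was at 6.35, 7.29 and 7.33 in CFA muscle and at 7.30, 7.32 and 6.47 in saline muscle. Both groups held 1 low array and 2 high ones, and the difference was −0.04 (SE 0.30, 95% confidence interval −0.67 to 0.60). Piezo1, a mechanically gated channel of many non-neuronal cells, was at 4.11, 4.51 and 3.75 against 4.26, 4.26 and 4.56, a difference of −0.25 (SE 0.25). Both of its other probe sets had the opposite sign.

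Asic3, an acid-sensing channel of muscle and skin afferents that opens to a small fall in pH, was at 4.34, 4.12 and 4.53 in CFA muscle and at 5.47, 4.81 and 4.95 in saline muscle. All CFA muscle values lay below, with means of 4.33 ± 0.21 and 5.07 ± 0.35 (SD, n = 3 each). The difference of −0.74 (SE 0.35, 95% confidence interval −1.49 to −0.00) was of the same size with only CFA muscle replicate 1 kept (−0.74), and the limma adjusted p was 1. Asic1 and Asic2, the subunits it can join with, differed by −0.08 (SE 0.20) and −0.24 (SE 0.25), with overlap. Lhfpl5, a partner protein of the hair cell transduction channel, was at 4.14, 4.04 and 4.31 in CFA muscle and at 4.47, 4.79 and 4.86 in saline muscle. All CFA muscle arrays lay lower, and the difference of −0.54 (SE 0.15) was −0.56 with only CFA muscle replicate 1 kept. Stom, which encodes stomatin, a membrane protein that modulates acid-sensing channels, was higher, at 3.63, 3.25 and 3.24 against 2.78, 3.22 and 2.44. That is a difference of 0.56 (SE 0.18), and saline muscle replicate 2 came close to the CFA muscle values. The related Stoml3, needed for touch in mice, differed by −0.05 (SE 0.18), and the leak channels Kcnk2 and Kcnk4 each differed by 0.04 (SE 0.15 and 0.24).

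Members of the other channel lists lay without overlap at shares near those of all genes. Kcnj3, a subunit of the potassium channels opened by inhibitory G-protein-coupled receptors, was at 3.17, 4.18 and 3.83 in CFA muscle and at 4.43, 4.42 and 4.41 in saline muscle. The saline muscle arrays lay close together, and the difference of −0.70 (SE 0.23) rested in part on CFA muscle replicate 1, without which it was −0.42. The potassium channel list does not hold Kcna3 or Kcnj1, which were named above by their small p. Of its 51 measured genes, 1 was higher (Kcnn1; 1.96%, against 3.63% of all genes) and 3 lower (5.88%, against 4.1%) without overlap. Cacna1c, the L-type calcium channel Cav1.2, differed by −0.53 (SE 0.25), and Scn8a, the sodium channel of nodes of Ranvier, by −0.38 (SE 0.35), both without overlap. Among 15 sodium channel genes only Scn8a was without overlap (6.67% lower, against 4.1% of all genes), and 0 were higher. After quantile normalization and after cyclic loess between arrays the counts were 0 higher and 0 lower. The nociceptor channels Scn9a and Scn10a differed by −0.13 (SE 0.34) and 0.06 (SE 0.37). The medians of the sodium and potassium channel lists, −0.08 and −0.10, turned to 0.01 for both without CFA muscle replicate 1.

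Receptors for chemical signals were in the same range. P2rx2, an ATP-gated channel subunit, was at 3.00, 2.96 and 3.15 against 3.20, 3.23 and 3.55, a difference of −0.29 (SE 0.13) without overlap. P2rx3, the subunit typical of nociceptors, differed by 0.20 (SE 0.31). Chrnb2, a nicotinic acetylcholine receptor subunit, differed by −0.53 (SE 0.21) without overlap. Of 58 measured receptors for inflammatory mediators, 3 were higher without overlap (5.17%, against 3.63% of all genes): Ager, the receptor for advanced glycation end products, Cxcr4, a chemokine receptor, and Tgfbr2, a receptor for transforming growth factor beta. Their differences were 0.40 (SE 0.22), 0.38 (SE 0.20) and 0.39 (SE 0.19). The 4 lower ones (6.9%, against 4.1%) were Acvr1c, Hrh4, Il10ra and Ptgir. Both shares were near those of all genes.

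Genes for peptides and peptidergic neurons had mostly lower means. Of 29 measured neuropeptide and granin genes, 24 had a negative difference and 5 a positive one (17.2% positive, against 47.1% of all genes), with a median of −0.08. The median stayed below 0 in every alternative run, between −0.14 and −0.04. Only Nmb was lower without overlap (3.45%, against 4.1% of all genes), and 0 were higher (against 3.63%). After quantile normalization the counts were 1 higher and 2 lower. Of the 29 genes, 8 were dim. Adcyap1, which encodes the neuropeptide PACAP, was at 3.65, 4.34 and 3.73 in CFA muscle and at 5.03, 4.23 and 4.55 in saline muscle. CFA muscle replicate 2 lay above saline muscle replicate 2, so the groups overlapped, and the difference was −0.70 (SE 0.27). Nmb, which encodes neuromedin B, was at 4.63, 4.83 and 4.74 against 5.11, 6.07 and 5.00, a difference of −0.66 (SE 0.40). Tac1, the substance P precursor, differed by −0.33 (SE 0.29) and Chga, chromogranin A of dense-core vesicles, by −0.44 (SE 0.36), both with overlap.

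The wider list of peptidergic nociceptor genes had the lowest median of the lists, at −0.17 over 19 measured genes, 13 of them negative. It was −0.12 with only CFA muscle replicate 1 kept and −0.21 without that replicate. Of the 19 genes, 2 were lower without overlap (10.5%, against 4.1% of all genes) and 0 higher. After quantile normalization 4 were lower and 0 higher. Trpv1, the heat and capsaicin receptor, was at 4.15, 4.67 and 4.61 in CFA muscle and at 4.97, 5.40 and 4.60 in saline muscle. Its difference was −0.51 (SE 0.34), with saline muscle replicate 3 just under CFA muscle replicates 2 and 3. Other neuronal lists had negative medians too, of −0.10 over 32 synaptic genes and −0.12 over 12 general sensory neuron genes. Their shares of positive differences, 21.9% and 25.0%, were also low, near the 17.2% of the neuropeptide list. Those 2 medians were 0.06 and 0.01 without CFA muscle replicate 1, and 0.04 and 0.05 without saline muscle replicate 1. Of the synaptic genes 4 were lower without overlap (12.5%, against 4.1% of all genes) and 0 higher. The lower count was 2 after quantile normalization and 3 after cyclic loess between arrays. Of the general sensory neuron genes 1 was lower without overlap (8.33%) and 0 higher.

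**Figure D4:**
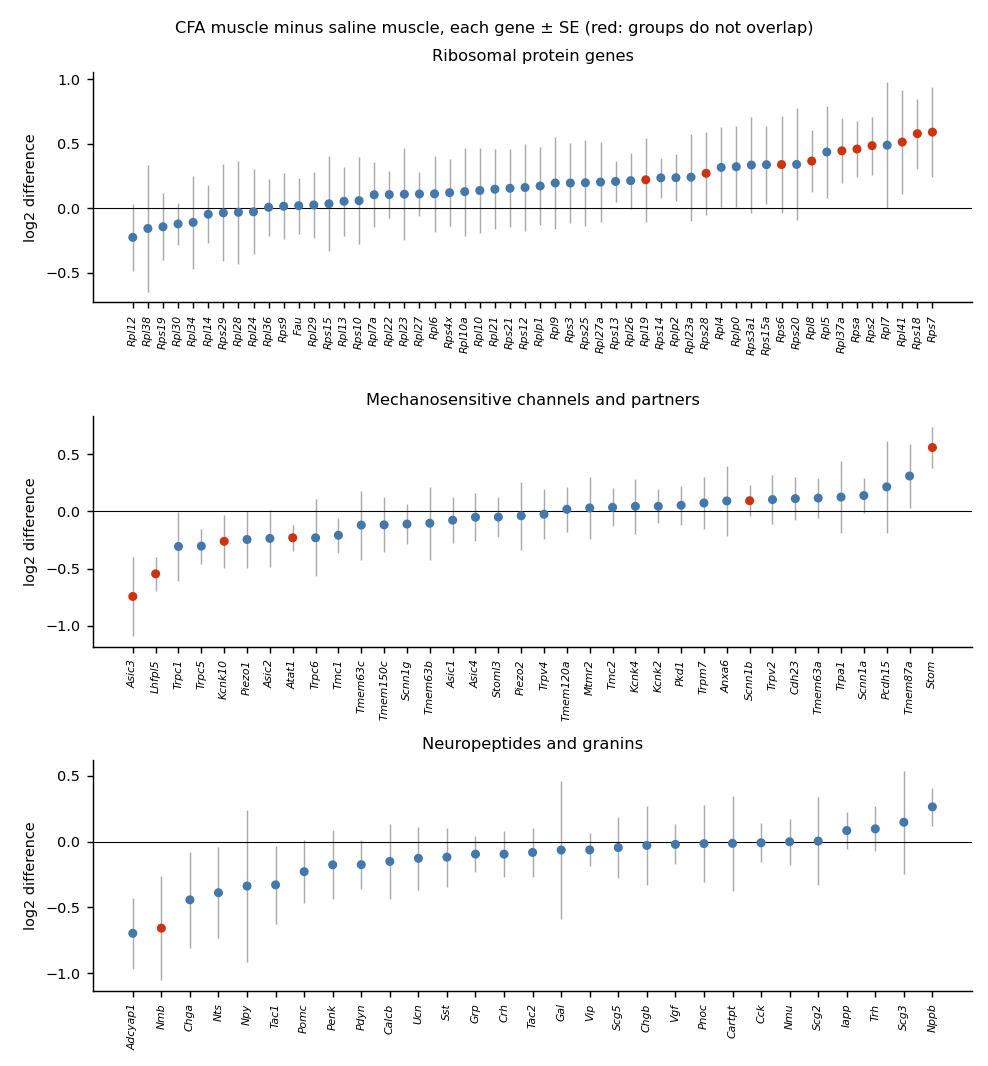
Log2 difference, CFA muscle minus saline muscle (vertical axes), of each measured ribosomal protein, mechanosensitive and neuropeptide gene, ordered by size; bars are ± SE, and red marks genes whose groups do not overlap. Of the ribosomal protein genes 45 of 54 lie above 0, of the mechanosensitive genes 17 of 36, and of the neuropeptide genes 5 of 29.

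Ribosomal protein genes had higher means in CFA muscle. Of 77 named, 54 were measured, 45 had a positive difference, and the median was 0.17. The groups did not overlap for 10 higher members (18.5%, against 3.63% of all genes) and for 0 lower ones. The 10 were Rpl19, Rpl37a, Rpl41, Rpl8, Rps18, Rps2, Rps28, Rps6, Rps7 and Rpsa. Rps2 was at 7.58, 7.56 and 7.49 in CFA muscle and at 7.16, 6.90 and 7.13 in saline muscle, a difference of 0.48 (SE 0.22). Rps18 was at 6.51, 6.56 and 6.45 against 6.31, 5.61 and 5.86, a difference of 0.58 (SE 0.27). The CFA muscle arrays agreed closely for both genes, and the larger spread was among the saline muscle arrays. Rps6, a ribosomal protein phosphorylated by growth signals, was at 7.90, 7.99 and 7.99 against 7.72, 7.74 and 7.40 (0.34, SE 0.37). Of the 4 other probe sets for Rpsa, 1 had the opposite sign. Ribosomal genes vary together from array to array, so the 54 are not independent: the list's mean level was 6.37, 6.34 and 6.26 in CFA muscle, 6.25, 6.16 and 6.02 in saline muscle, and from 5.65 to 6.69 among the acid muscle arrays. The spread within acid muscle was thus larger than the difference described. The median lay between 0.08 and 0.23 over the alternatives. It was 0.13 for acid muscle against the same saline muscle arrays and 0.11 for CFA paw against saline paw.

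Respiratory chain genes of the mitochondria had 8 of 73 measured members lower without overlap (11.0%, against 4.1% of all genes) and 1 higher (Ndufb11; 1.37%, against 3.63%). The lower count was 2 after quantile normalization and 3 after cyclic loess between arrays, with 2 higher in both. The median of −0.06 was 0.04 without saline muscle replicate 1 and −0.01 without CFA muscle replicate 3. For acid muscle against the same saline muscle arrays it was 0.15, with list means on the acid muscle arrays from 5.51 to 6.68. The lower ones were Atp5o, Ndufa10, Ndufa2, Ndufb6, Ndufb8, Ndufc1, Ndufs7 and Uqcr10, with differences from −0.15 (Ndufa2) to −0.40 (Ndufb6). Small nucleolar RNA genes, a list added after the values were seen, had 5 of 51 members higher without overlap (9.8%, against 3.63%) and 1 lower (1.96%, against 4.1%). Snord82 was at 5.29, 6.12 and 6.10 in CFA muscle and at 3.36, 4.23 and 4.45 in saline muscle, a difference of 1.83 (SE 0.62). All CFA muscle arrays lay higher, yet the acid muscle arrays ran from 2.91 to 6.41, across the range of both groups. Rny3, a small RNA of Ro particles, was at 7.43, 7.47 and 7.03 against 6.20, 5.61 and 6.25, a difference of 1.29 (SE 0.63), with acid muscle again between 4.89 and 8.09. Of the 51 genes, 30 were dim.

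Markers of immune cells were mostly dim. Of 19 macrophage markers 13 were dim, of 14 neutrophil markers 11, and of 13 measured lymphocyte markers 8. The medians of the differences were −0.01, −0.05 and −0.06, and with dim genes left out −0.06, −0.13 and 0.15. Of the lymphocyte markers 2 were higher without overlap (15.4%, against 3.63% of all genes) and 0 lower. Of the macrophage and neutrophil markers 1 each was lower (5.26% and 7.14%, against 4.1%) and 0 higher. The mean macrophage marker level was 2.32, 2.27 and 2.24 in CFA muscle and 2.23, 2.31 and 2.40 in saline muscle. Cd74, the chaperone of class II antigen presentation, was dim on all 6 arrays, at 1.74, 1.89 and 1.61 in CFA muscle against 1.99, 2.25 and 2.29. Cd79b, a part of the B cell receptor, was at 3.55, 3.62 and 3.55 against 2.94, 2.99 and 3.31, a difference of 0.50 (SE 0.20) without overlap. Interferon response genes had a median of 0.10 over 42 members, 28 of them positive, with 4 higher without overlap (9.52%, against 3.63% of all genes) and 1, Gbp4, lower (2.38%, against 4.1%). The higher ones were Ifit1, Ifitm2, Oasl2 and Rtp4, of which Ifitm2, a membrane protein that restricts virus entry, was at 5.98, 6.55 and 6.26 against 5.89, 5.23 and 5.79 (0.63, SE 0.31). Among 44 cytokine and mediator genes, 0 were higher (against 3.63% of all genes) and 3 lower (6.82%, against 4.1%) without overlap.

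Injury and activity genes had no higher means as lists. Of 45 nerve injury genes 31 had a negative difference, with a median of −0.06. Without overlap, 2 were higher (4.44%, against 3.63% of all genes) and 1 lower (2.22%, against 4.1%). Atf3, a transcription factor induced by axon damage, was at 6.12, 5.94 and 6.48 in CFA muscle and at 6.85, 6.65 and 5.41 in saline muscle, a difference of −0.12 (SE 0.39) with wide overlap. Sprr1a, a protein of regenerating axons, was at 4.12, 6.22 and 6.92 against 6.95, 6.28 and 5.71 (−0.56, SE 0.85), so single arrays differed more than the groups. Bdnf, a growth factor that sensory neurons release in inflammation, was at 3.58, 3.58 and 3.48 against 3.51, 3.27 and 3.35 (0.18, SE 0.15). Of 32 immediate early genes 20 were negative. Without overlap, 1 was higher (3.12%, against 3.63% of all genes) and 1 lower (3.12%, against 4.1%). The lower gene was Jund, a member of the AP-1 family, with a difference of −0.35 (SE 0.16).

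Most glial and fibroblast markers had positive differences. Of 12 satellite glia genes 8 were positive, with a median of 0.16 that was 0.03 without saline muscle replicate 3. Their mean level was 5.42, 5.56 and 5.34 in CFA muscle and 5.65, 5.12 and 4.98 in saline muscle, so that the groups overlapped. Lgi4, a glial protein needed for myelination, was at 3.17, 3.14 and 3.25 against 3.01, 2.39 and 2.84, without overlap. Of 12 fibroblast genes 11 were positive, with a median of 0.19 that was 0.12 with only CFA muscle replicate 1 kept. The mean fibroblast level was 3.56, 3.58 and 3.47 in CFA muscle and 3.26, 3.34 and 3.16 in saline muscle, so that the groups did not overlap, and acid muscle ran from 3.29 to 3.69. Col1a2, a chain of type I collagen, was at 5.52, 5.23 and 4.94 against 4.74, 4.70 and 4.69, a difference of 0.52 (SE 0.24). Of 14 Schwann cell genes 10 were positive (median 0.13, and −0.02 without CFA muscle replicate 1), and the medians of endothelial and skeletal muscle genes were 0.03 and 0.06. Pdgfrb, a receptor of fibroblasts and pericytes, differed by 0.47 (SE 0.17), with overlap. For acid muscle against the same saline muscle arrays, the medians of satellite glia, Schwann cell and fibroblast genes were 0.20, 0.30 and 0.12. For CFA paw against saline paw they were 0.09, −0.04 and −0.04. The part of these cells in the other results was not tested.

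**Figure D5:**
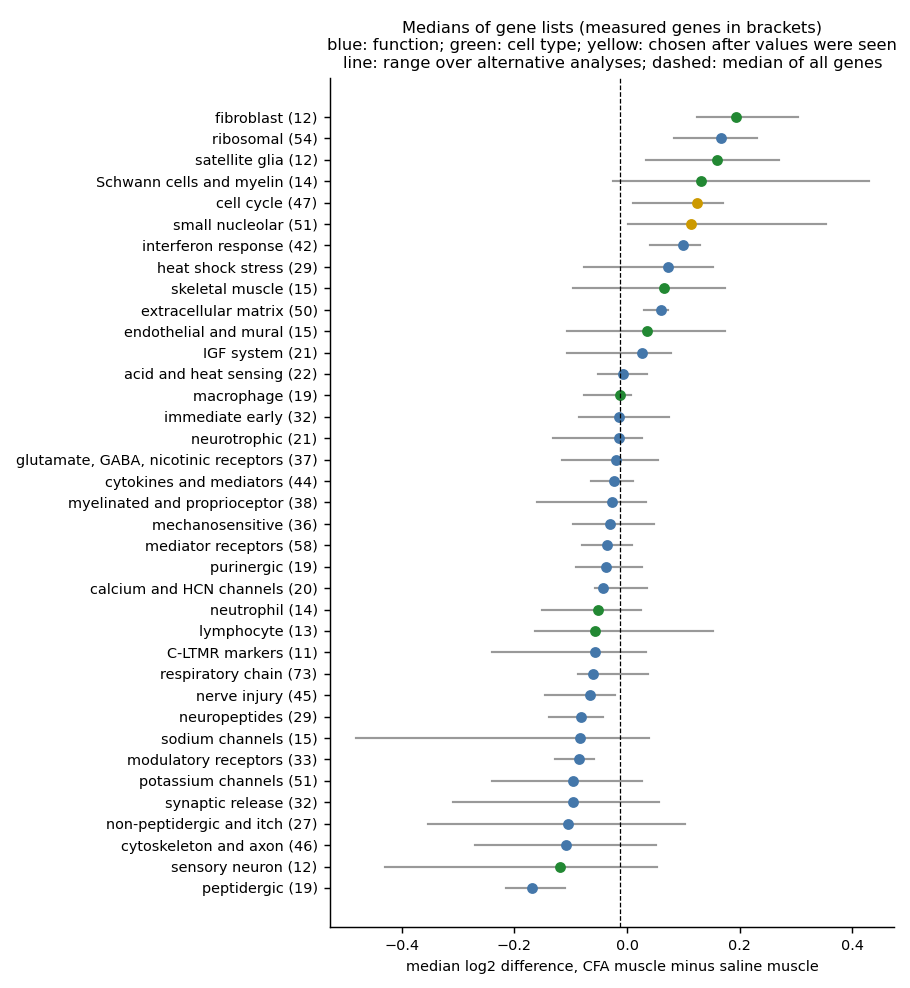
Median log2 difference, CFA muscle minus saline muscle (horizontal axis), of each gene list with 5 or more measured genes, whose number stands in brackets; blue marks functions, green cell types and yellow lists chosen after the values were seen. Grey lines span the alternative analyses and the dashed line is the median of all genes, −0.01; fibroblast and ribosomal genes lie highest (0.19 and 0.17) and peptidergic genes lowest (−0.17).

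The same genes were set beside the other injections. Acid muscle used the same 3 saline muscle controls, so its values are not independent of those above. Against these controls Igfbp5 differed by 0.52 in acid muscle, Notch2 by 0.18, Kcna3 by 0.49 and Magel2 by 0.31. Lhfpl5 differed by −0.60, Adcyap1 by −0.76, Asic3 by 0.01 and Kcnj3 by −0.13. In a direct limma comparison of CFA muscle with acid muscle, 0 genes passed after Benjamini-Hochberg adjustment, and 626 (3.14%) had an unadjusted p under 0.05.

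The CFA effect in muscle was also tested against that in the paw, where GFP-positive neurons were compared after CFA and saline. With limma and Benjamini-Hochberg adjustment, 0 genes passed for the difference of the effects, and 325 (1.63%) had an unadjusted p under 0.05. Adcyap1 was lower by 0.70 in muscle and higher by 0.91 in the paw, a difference of effects of −1.60 (SE 0.38, limma's unadjusted p 0.0008, adjusted p 1). Its muscle levels were 3.65 to 5.03, against 5.65 to 7.20 on the paw arrays. Igfbp5 differed by 1.15 in muscle and −0.25 in the paw (difference of effects 1.39, SE 0.33), and Jpt2 by 0.80 and −0.31 (1.12, SE 0.28). The muscle neurons lacked GFP and the paw neurons carried it, so tissue and GFP class cannot be told apart here. No gene can be called particular to muscle on these tests.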

How the data were processed

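RNA of sorted neurons, 50 ng per sample, was amplified, labelled with biotin and hybridised to Affymetrix whole-transcript arrays, per the labels' protocols. The authors deposited normalized log2 values per probe set for 15 arrays. RMA and Partek are named, without versions, in the submitters' processing notes, and the log base was inferred from the range of the values. RMA removes differences in overall level between arrays, so a change of total RNA cannot be seen. Of 35556 probe sets, 21789 had 1 gene symbol, 1621 had several and 12146 had none here. Where several probe sets named a gene (999 genes), the one with the highest mean was used, which left 19938 genes. The identifiers of 21698 probe sets matched the RefSeq gene table, with 0 symbols updated.

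In R 4.3.3, limma 3.58.1 fitted the means of the 5 groups to all 15 arrays (10 residual degrees of freedom, prior 4.32). All tests were two-sided, with Benjamini-Hochberg adjustment over all genes and a threshold of 0.05. The fit was tested on simulated data. Standard errors and confidence intervals come from that fit, and SDs from the 3 arrays of a group. The number of arrays limits the precision, and the labels give no scan date or batch. P-values measure the spread between samples described as biological replicates.

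The 36 gene lists name 1027 genes, of which 928 were measured. A list is described by counts and its median, without a test. The comparison, lists and named genes were chosen with earlier results of these data known. Genes named by rule are the 15 with the smallest p in each direction, the 10 largest differences without overlap that are not dim, at most 3 genes per list by smallest p, and a fixed set of channels, receptors and markers. Predicted, microRNA, small nucleolar and receptor-cluster genes were left out of the first 2 parts. Other genes named, the lists of cell cycle, small nucleolar and Y-linked genes, and the analysis with only CFA muscle replicate 1 were added after the values were seen. Alternatives were other normalizations, fits, filters and thresholds, a replicate block and each array left out in turn.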

Additional observations from a re-analysis of the deposited data

Results flagged for a closer look

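Cstf2, which encodes a subunit of the cleavage stimulation factor that acts at polyadenylation sites, was higher in CFA muscle on every array. In the paw it had a slightly lower mean after CFA. It was at 4.24, 4.36 and 4.21 in CFA muscle against 4.05, 3.72 and 3.06 in saline muscle, and at 4.24, 4.09 and 4.34 in CFA paw against 4.34, 4.39 and 4.46 in saline paw. The effects were 0.66 (SE 0.19) and −0.18, and their difference was 0.841 (SE 0.27, limma's unadjusted p 0.0082, Benjamini-Hochberg adjusted p 1). The groups touch in the paw, where the highest CFA value and the lowest saline value are both 4.34 after rounding, and saline muscle replicate 3 is the lowest of its group. Without that replicate the difference in muscle was 0.39.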

How the results depend on the processing

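The count of 0 genes at a limma adjusted p under 0.05 held at thresholds of 0.1 and 0.2 and in the other alternatives, except without CFA muscle replicate 1 (0 to 8 over the leave-one-out analyses). Leaving out each array in turn gave 206 to 314 genes higher and 199 to 428 lower at an unadjusted p under 0.05, and 1428 to 1943 higher and 1548 to 2205 lower without overlap, a count that grows as fewer arrays are compared. The unadjusted counts, 278 higher and 240 lower, were 455 and 423 after quantile normalization, 583 and 523 with array weights, 540 and 586 with a covariate for the SD of the array, and 144 and 94 without dim genes, which also left 501 lower genes without overlap. The lower count was 381 after cyclic loess and 382 without saline paw replicate 1. With only CFA muscle replicate 1 kept, 425 genes were higher, and 4373 higher and 5014 lower genes had no overlap.

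Of 4645 values of named genes under the alternatives, 4619 were counted as unchanged, and 8 passed the threshold without CFA muscle replicate 1. The other 18 were counted as reversed, 17 of them with only that replicate kept: Acta2 −0.11, Cacna1i −0.038, Cldn6 −0.37, Cym −0.21, Dusp6 0.15, Eif2s3y −0.18, Hmgb2 −0.25, Igf2 −0.47, Igfbp2 −0.23, Lcn2 0.042, Pdgfra −0.042, Plk1 −0.24, Snord15b −0.41, Tafa4 −0.28, Top2a −0.10, Vcan −0.031 and Xist −0.25. Chrm3 was 0.05 without saline muscle replicate 3. The count of reversals did not take in every change of sign, since Piezo2 turned positive without CFA muscle replicate 1. The cause was not tested. The medians of 11 of 39 lists kept their sign in every alternative, among them ribosomal, fibroblast, satellite glia, interferon, peptidergic and neuropeptide genes.

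Same-numbered CFA and saline muscle samples deviated with correlations of −0.23, 0.05 and −0.13, and those of unlike numbers from −0.20 to 0.26. Deviations of 3 arrays from their own mean are tied to one another. These values therefore cannot show whether equal numbers mark paired samples. With the replicate number as a block, limma called 0 genes, with 243 higher and 200 lower at an unadjusted p under 0.05. Signals near background limit the 6519 dim genes.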
